A study of Mus musculus with 2 samples.

Results

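The 10 genes described here, Nfkbia, Tnfaip3, Nfkbiz, Bcl3, Nfkb1, Nfkb2, Relb, Birc3, Icam1 and Vcam1, are regulators and targets of NF-kappaB. They were taken as a named list from the 31054 features of 2 single-cell RNA-seq libraries of mouse liver cells enriched for hepatic stellate cells. NF-kappaB is a family of dimeric transcription factors that inhibitor proteins hold in the cytoplasm until cytokine or microbial signals lead to the inhibitor's breakdown. The released dimers switch on inflammatory genes and, in the same round, the genes of their own inhibitors, so the RNA of Nfkbia or Tnfaip3 is commonly used as a sign of recent pathway activity. In the liver the pathway is best known from Kupffer cells, the resident macrophages, and from stellate and endothelial cells that answer macrophage cytokines.

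Both libraries came from male C57BL/6 mice given CCl4 for 4 weeks together with tamoxifen and diphtheria toxin. The p16-Alb-LRTD mice carried p16-CreERT2, Alb-DreERT2 and the reporter allele R26-CAG-LSL-RSR-tdTomato-2A-DTR, each heterozygous, so that only hepatocytes in which the p16 and the albumin promoter are both active should express the toxin receptor, unless the stop cassettes leak. The comparison asks what the loss of p16-high hepatocytes does to other liver cells in fibrosis. The p16-LRTD mice, the control, lacked Alb-DreERT2 but carried the other alleles and received the same treatment. The age and number of mice behind each library are not given in the sources used here, and each genotype is 1 library. No test between the genotypes was therefore possible, and no p-value is given. The 95% intervals below are exact and cover counting error only, not the spread between cells or between mice. Genotype, mouse, isolation and library cannot be told apart.

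Cells were kept at 2000 to 7000 genes, at most 50000 UMIs (unique molecules counted) and at most 5% mitochondrial UMIs, which left 9004 of 11149 barcodes for p16-LRTD and 7416 of 8806 for p16-Alb-LRTD. Classes were ranges of summed marker UMIs rather than clusters. The stellate class needed at least 15 UMIs per 10000 from Lrat, Ecm1, Hgf and Reln, the endothelial class at least 8 from Kdr, Stab2 and Ptprb, and the Kupffer class at least 8 from Clec4f, Cd5l, Vsig4 and Csf1r. A cell that reached more than 1 threshold was left out as a possible doublet. This applied to 245 p16-LRTD and 221 p16-Alb-LRTD cells, and no doublet caller was run. The stellate class held 7852 p16-LRTD and 6621 p16-Alb-LRTD cells, the endothelial class 430 and 283, and the Kupffer class 283 and 178. Total UMIs were 142651137 and 125115995 in the stellate class, 6154423 and 3983226 in the endothelial class and 5945102 and 4473285 in the Kupffer class, so the stellate values are the most precise. Cells within 20% of their own threshold numbered 52 and 35 stellate, 9 and 3 endothelial and 21 and 9 Kupffer. The libraries shared 95 barcodes, and each of the endothelial and Kupffer classes held at most 2 of these in a library.

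Markers that the class rule did not use went with the class names. Dcn stood at 18430 and 22186 CPM (a gene's UMIs per 1000000 UMIs summed over a class) in the stellate class, Clec4g at 1225 and 1268 CPM in the endothelial class, and C1qa at 3317 and 4058 CPM in the Kupffer class, here and below with p16-LRTD first. Of 7 stellate markers outside the rule, 5 were lower in p16-Alb-LRTD in stellate cells, 1 by at least 1.5-fold. Of 8 endothelial markers, 5 were lower in endothelial cells, 2 by that much. Of 8 Kupffer markers, 2 were lower in Kupffer cells and 2 at least 1.5-fold higher. The endothelial markers summed to 9131 and 7919 CPM in their class. The median of the other classes' marker UMIs was 0 per 10000 in stellate cells. Stellate marker UMIs had a median of 2.12 and 3.49 per 10000 in endothelial cells and of 1.97 and 1.75 in Kupffer cells. Genes of other cell types were thus found at a low level in many cells, and how much of this was free RNA was not tested. After each cell was thinned to 5000 UMIs, which left out 16 and 7 stellate, 12 and 0 endothelial and 5 and 1 Kupffer cells of lower depth, Dcn was found in 62.9% and 66.7% of Kupffer cells, and Clec4f, a Kupffer gene, in 1.34% and 1.12% of stellate cells.

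The start regions of the genes show what NF-kappaB could bind there. Of the 10 genes, 6 had a promoter entry in the RefSeq table of build GRCm38.p6, in 9 windows, and 250 bases before each start were searched on both strands. The NF-kappaB consensus motif was present in 5 of these 9 windows, in Nfkbia, Tnfaip3 and Nfkb2, and in 3.90% of 32851 promoters of all genes. Several of the 5 windows are starts of Nfkb2. By gene the motif was found in 3 of 6, against 1204 of 27025 of all genes. A looser form, with the same run of G at its start and pair of C at its end and any bases between, takes in every consensus match. It was present in all 9 windows but also in 45.8% of all promoters. Nfkb1, Relb, Nfkbiz and Vcam1 had no entry. The stretches just before a RefSeq start of the inhibitor genes Nfkbia and Tnfaip3, and a short piece before one Nfkb2 start, are shown because they hold these matches. Capitals mark the consensus on either strand, and each run reads 5′ to 3′ on the strand of the gene.
Nfkbia: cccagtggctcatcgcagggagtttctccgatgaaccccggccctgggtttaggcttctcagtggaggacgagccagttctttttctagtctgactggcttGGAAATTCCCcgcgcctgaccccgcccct
Tnfaip3: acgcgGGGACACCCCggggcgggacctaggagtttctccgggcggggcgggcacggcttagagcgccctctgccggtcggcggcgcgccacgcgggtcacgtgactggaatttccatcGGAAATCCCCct
Nfkb2: cgtcacGGGAATTCCCCccctcggggggcc
The Nfkbia stretch is chr12:55492648-55492777 (minus strand), the Tnfaip3 stretch chr10:19015411-19015540 (minus strand) and the Nfkb2 piece chr19:46304692-46304721 (plus strand). The Tnfaip3 and Nfkb2 stretches lie inside the wider GENCODE spans of these genes given below. The Nfkbia match began 29 bases before the start and the Tnfaip3 matches 125 and 12 bases before it. In Nfkb2 the capitals join matches that overlap, read on both strands. A match is only a run of letters, and no binding was measured here.

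In the Kupffer class 9 of the 10 genes were at least 1.5-fold higher in p16-Alb-LRTD, a level that 5.21% of all 9514 features with a mean of at least 5 CPM reached. In the stellate class 4 of 10 were, against 3.03% of 10179 features, and in the endothelial class 2 of 10, against 6.44% of 9858 features. No gene of the list was 1.5-fold lower in any class, where 6.83%, 3.05% and 13.5% of all features were, in the same order. At 2-fold, 1 of 10 genes in stellate cells (Tnfaip3), 0 in endothelial cells and 2 in Kupffer cells (Tnfaip3 and Icam1) were higher, against 0.923%, 2% and 1.7% of all features. All 10 genes had a mean of at least 5 CPM in every class. Stellate Tnfaip3, counted at both folds, stood at 4.72 CPM in p16-LRTD and reached that mean only through p16-Alb-LRTD. Its stellate log2 ratio was under 2-fold with barcodes counted in each class they reach (0.87) and with class thresholds 1.5 times as high (0.95). The median log2 ratio of the list (p16-Alb-LRTD over p16-LRTD) was 0.80 in Kupffer, 0.41 in stellate and 0.02 in endothelial cells, beside medians of -0.06, -0.05 and -0.10 over all features. The Kupffer count depended on which cells were summed. It was 4 among cells of 10000 to 30000 UMIs, where 5.15% of all features were, as was the stellate count in that range, against 2.99%. It was 7 without cells with a Mki67 or Top2a UMI (5.65%), without the 5% of cells with the most UMIs (4.79%), or by the mean of per-cell CPM (4.87%).

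**Figure D1:**
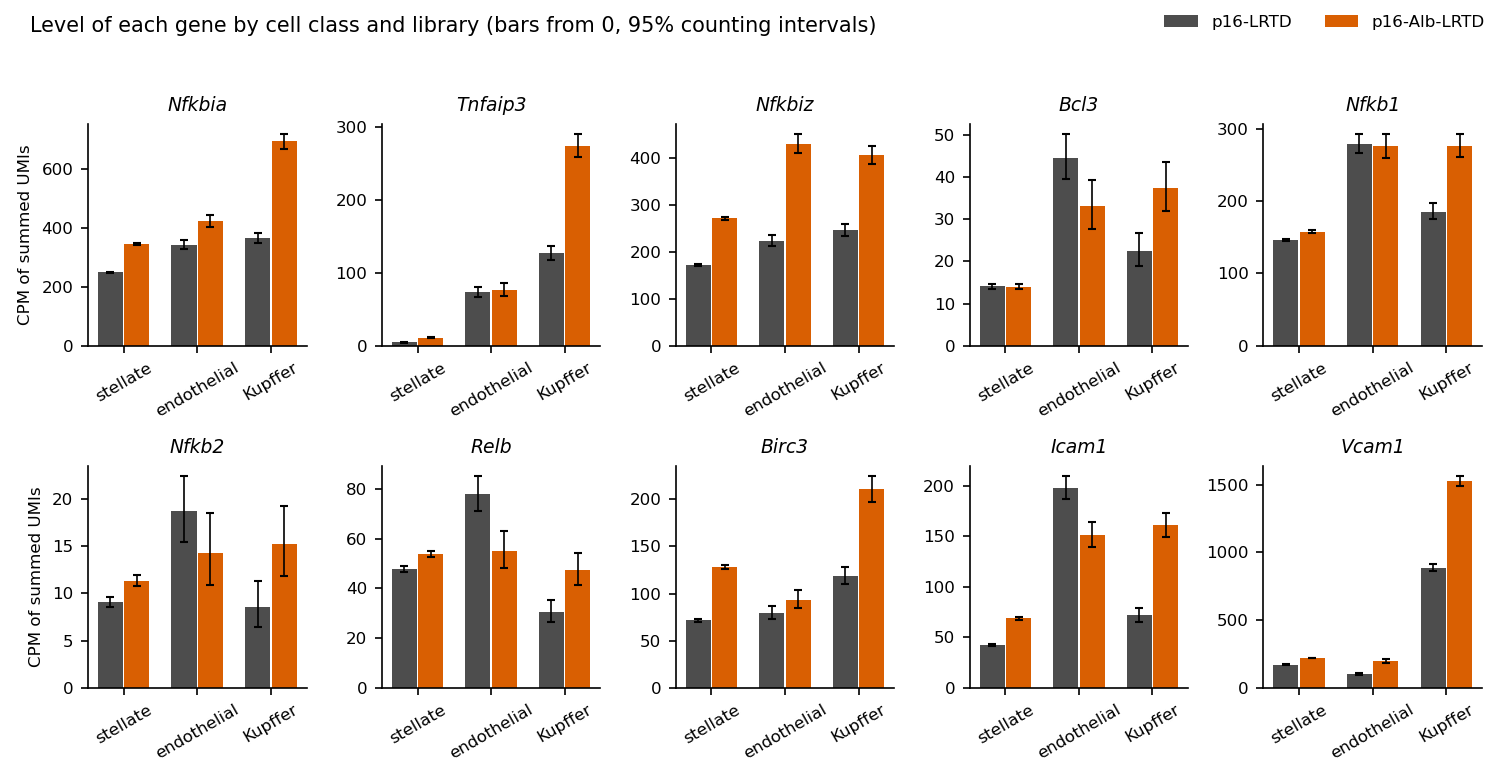
Level of each gene in CPM of summed UMIs (vertical axis, starting at 0) in the stellate, endothelial and Kupffer classes, with grey bars for p16-LRTD, orange bars for p16-Alb-LRTD and 95% counting intervals. In the Kupffer class the orange bar is the higher for all 10 genes, while in the endothelial class it is lower for Bcl3, Nfkb2, Relb and Icam1 and level for Nfkb1.

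The inhibitors and atypical IkB proteins come first. Nfkbia (chr12:55489410-55492647 in GRCm38) encodes the classical inhibitor that keeps NF-kappaB dimers in the cytoplasm. In stellate cells it stood at 249 and 345 CPM, a log2 ratio of 0.47 (interval 0.45 to 0.49), at 342 and 422 CPM in endothelial cells (0.30, 0.21 to 0.39), and at 365 and 693 CPM in Kupffer cells (0.92, with a lower bound of 0.84). The p16-Alb-LRTD value was the higher one in each class, past 1.5-fold only in Kupffer cells. In p16-LRTD the Kupffer and endothelial levels had overlapping intervals and the stellate level lay below both, whereas in p16-Alb-LRTD all 3 classes stood apart.

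Tnfaip3 (chr10:19000910-19015657) encodes a ubiquitin-editing enzyme that ends signalling upstream of the NF-kappaB kinase. Its stellate level was low, 4.72 and 10.8 CPM, with a log2 ratio of 1.19 (1.06 to 1.33), the largest of the list in that class. In Kupffer cells it stood at 127 and 274 CPM (1.11, 0.98 to 1.25). The endothelial values, 73.3 and 76.3 CPM, differed by less than the counting error (0.06, -0.16 to 0.27). After thinning, 2.14% and 4.61% of stellate cells had a Tnfaip3 UMI (6.74% and 11.9% without thinning), against 39.2% and 54.2% of Kupffer cells (67.8% and 81.5%). Beside these shares, 1.34% and 1.12% of stellate cells had a UMI of the Kupffer gene Clec4f, and how much of the stellate Tnfaip3 signal was free RNA was not tested. The Kupffer levels were the highest and the stellate levels the lowest in both libraries.

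Nfkbiz (chr16:55811375-55838899) encodes a nuclear IkB protein that helps NF-kappaB switch on secondary response genes. It was the one gene of the list past 1.5-fold in all 3 classes. The levels were 172 and 272 CPM in stellate cells (log2 ratio 0.66, 0.64 to 0.68), 224 and 431 CPM in endothelial cells (0.95, 0.84 to 1.05) and 247 and 406 CPM in Kupffer cells (0.72, 0.62 to 0.82). The share of cells with a UMI after thinning went the same way, from 49.4% to 63.2% in stellate cells (78.5% and 88.9% without thinning) and from 55.0% to 72.1% in endothelial cells (71.9% and 83.0%). Bcl3 (chr7:19808462-19822770), a nuclear IkB protein that binds dimers of the processed subunits, differed between classes. It stood at 14.0 CPM in both libraries of stellate cells (-0.01, -0.10 to 0.09), at 44.5 and 33.1 CPM in endothelial cells (-0.43, -0.74 to -0.12) and at 22.5 and 37.3 CPM in Kupffer cells (0.73, 0.39 to 1.07). Its endothelial value was lower and its Kupffer value higher in p16-Alb-LRTD, both beyond counting error.

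The 3 subunit genes had smaller ratios than Nfkbia, Tnfaip3 and Nfkbiz in stellate cells. Nfkb1 (chr3:135584655-135691547), the precursor of the subunit of the classical dimer, stood at 146 and 158 CPM (log2 ratio 0.11, 0.08 to 0.14). Relb (chr7:19606217-19629438), the transactivating partner in the non-canonical branch, stood at 47.8 and 53.8 CPM (0.17, 0.12 to 0.22). Nfkb2 (chr19:46304320-46312385), whose product is the non-canonical precursor, stood at 9.09 and 11.3 CPM (0.32, 0.21 to 0.43). None of the 3 reached 1.5-fold in stellate cells, although each interval lay above 0. In Kupffer cells the same genes were higher by more. Nfkb1 stood at 186 and 277 CPM (0.58, 0.46 to 0.70), just short of 1.5-fold, Relb at 30.6 and 47.6 CPM (0.64, 0.35 to 0.93) and Nfkb2 at 8.58 and 15.2 CPM (0.83, 0.28 to 1.38). The Nfkb2 Kupffer value rests on 51 and 68 UMIs. In endothelial cells the subunits were level or lower in p16-Alb-LRTD. Nfkb1 stood at 279 and 276 CPM (-0.02, -0.13 to 0.09), Relb at 78.0 and 55.2 CPM (-0.50, -0.73 to -0.26) and Nfkb2 at 18.7 and 14.3 CPM (-0.38, -0.87 to 0.09), of which only the Relb interval excluded 0. In p16-LRTD all 3 subunit genes were highest in the endothelial class, and in p16-Alb-LRTD no class stood above the next in Nfkb2 or Relb beyond the intervals.

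Among the targets, Birc3 (chr9:7848699-7873186) encodes a ubiquitin ligase of the tumour necrosis factor receptor complex that protects from cell death. It stood at 71.4 and 128 CPM in stellate cells (log2 ratio 0.84, 0.81 to 0.88), at 79.8 and 93.4 CPM in endothelial cells (0.23, 0.03 to 0.42) and at 119 and 211 CPM in Kupffer cells (0.83, 0.69 to 0.97). The share of cells with a Birc3 UMI after thinning was 27.3% and 40.6% of stellate (59.0% and 75.1% without thinning) and 38.1% and 54.8% of Kupffer cells (77.0% and 90.4%). The stellate level passed the endothelial one in p16-Alb-LRTD but not in p16-LRTD.

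Icam1 (chr9:21015985-21028817), a cell surface ligand that leukocytes bind through integrins, went in opposite directions. Its levels were 42.0 and 68.8 CPM in stellate cells (0.71, 0.66 to 0.76) and 71.5 and 161 CPM in Kupffer cells (1.17, 0.99 to 1.34), but 198 and 151 CPM in endothelial cells (-0.39, -0.53 to -0.25). The endothelial class was the highest in p16-LRTD and overlapped the Kupffer class in p16-Alb-LRTD. The RNA was unevenly spread over endothelial cells: the 5% of cells with the most Icam1 UMIs, 21 and 14 cells, held 59.6% and 61.0% of them, and the single highest p16-Alb-LRTD cell held 122 of 602. In Kupffer cells the highest p16-Alb-LRTD cell held 113 of 718 Icam1 UMIs and 8 cells held 43.3%. The Kupffer ratio was 0.74, under 2-fold, without the 5% of cells with the most UMIs of the 10 genes and 0.75 without cells with a Mki67 or Top2a UMI. Vcam1 (chr3:116109949-116129688), the other adhesion ligand of the list, was higher in p16-Alb-LRTD in every class. It stood at 171 and 219 CPM in stellate cells (0.36, 0.33 to 0.38), at 104 and 199 CPM in endothelial cells (0.94, 0.79 to 1.09) and at 886 and 1526 CPM in Kupffer cells (0.78, 0.73 to 0.84), where it was highest in both libraries. Thus the adhesion ligands parted in endothelial cells and moved the same way in the other classes.

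**Figure D2:**
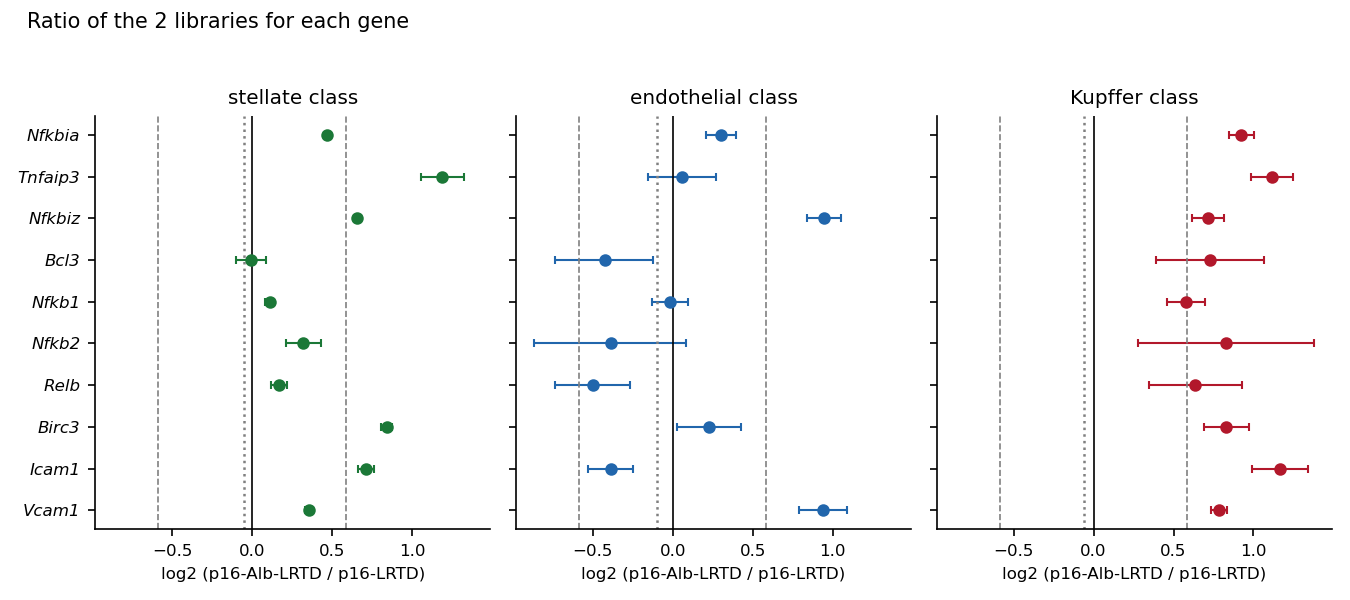
Log2 ratio of p16-Alb-LRTD over p16-LRTD (horizontal axis) for each gene in the 3 classes, with 95% counting intervals. Dashed lines mark 1.5-fold in either direction and the dotted line the median of all features with a mean of at least 5 CPM. All 10 Kupffer points lie above 0, while the endothelial points fall on both sides.

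The Kupffer ratios differed between ranges of UMIs per cell, and the cause was not tested. The p16-Alb-LRTD Kupffer cells had a median of 25102 UMIs and the p16-LRTD ones 19514. Among cells with 10000 to 30000 UMIs, 199 and 115 cells, 4 of 10 genes were past 1.5-fold and the median ratio was 0.50. There Nfkbia stood at 419 and 719 CPM (0.78, 0.68 to 0.88), Tnfaip3 at 143 and 257 CPM (0.85, 0.68 to 1.02), Bcl3 at 23.8 and 40.2 CPM (0.75, 0.33 to 1.18) and Icam1 at 72.3 and 168 CPM (1.22, 0.99 to 1.44). Those 4 were the genes past 1.5-fold in that range. All of the others still had ratios above 0 there, from 0.30 for Nfkb2, whose interval included 0, to 0.51 for Birc3. Among cells over 30000 UMIs, 56 and 52 cells, all 10 genes were past 1.5-fold, where 13.3% of all features were. The ratios were larger there for most genes, with Nfkbia at 1.43 and Birc3 at 1.58, and p16-LRTD levels lower, with Nfkbia at 244 CPM and Birc3 at 76.8 CPM. Under 10000 UMIs, 28 and 11 cells, 5 of 9 genes with a mean of at least 5 CPM were past 1.5-fold, against 28% of all features. Tnfaip3 had 1.56 and Vcam1 1.57 in those cells, but Bcl3 -0.46 and Birc3 -0.23. Shares after thinning went with the summed levels for Nfkbia (76.6% and 91.0%, or 95.4% and 100% without thinning) and Icam1 (26.6% and 36.7%, or 62.2% and 73.0%). For Relb they were 15.5% and 14.7% (40.6% and 48.9% without thinning) and for Nfkb2 5.40% and 5.08% (16.3% and 25.3%), against the direction of the CPM of both genes, and no order is read from them.

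Markers of other cells moved within the Kupffer class too, and their part in the result was not tested except as given here. Among genes listed for infiltrating macrophages, Gpnmb, a gene of lipid-laden and scar-associated macrophages, stood at 717 and 109 CPM and Spp1 at 313 and 141 CPM, while Chil3 stood at 3.87 and 30.2 CPM, Ccr2 at 8.58 and 6.48 CPM and Ly6c2 at 0.34 and 0 CPM. The endothelial marker list summed to 477 and 679 CPM in these cells, nearly all of it Cdh5 (361 and 530 CPM) and Pecam1 (62.7 and 125 CPM), with Clec4g at 1.51 and 1.79 CPM. The endothelial gene Stab2 was found in 36.7% and 49.2% of Kupffer cells after thinning (71.7% and 83.7% without). With the class limited to cells holding a Clec4f UMI, 256 and 166 cells, a limit chosen after seeing the data, all 10 genes were past 1.5-fold, as were 5.07% of all features, and the median was 0.80. Clec4f is part of the class rule, and this limit does not remove barcodes that hold more than 1 cell.

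The other genes of the pathway were taken as 97 genes in 7 roles. In Kupffer cells 78 of them had a mean of at least 5 CPM, of which 25 were at least 1.5-fold higher and 1 lower, where 5.21% and 6.83% of all features were, with a median of 0.27. The share was largest among targets, 16 higher of 22 with a median of 1.05, and ligands, 3 higher of 5. The 5 CPM minimum is on the mean of the libraries, so genes near absent in p16-LRTD can enter through p16-Alb-LRTD alone. Of 30 targets 22 entered here, Ccl5 with 1.35 CPM in p16-LRTD, against 15 in stellate and 16 in endothelial cells. How far this shaped the count and median was not tested. The adaptors had 1 higher of 16 and a median of 0.01, and the kinases 1 higher and 1 lower of 10. Of the ligands, Tnf, the cytokine that starts the classical branch, stood at 9.25 and 124 CPM, Il1b at 239 and 443 CPM and Il1a at 239 and 419 CPM. The Tnf value rested on few cells: 42 of 178 p16-Alb-LRTD cells had a Tnf UMI, and 2 of them held 323 of the 553. Without the 5% of cells with the most UMIs of the 10 genes its log2 ratio was 1.71 in place of 3.74. In that setting 13 of 21 targets were past 1.5-fold, where 5% of all features were.

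The 4 targets that differed most in Kupffer cells were chemokine genes. Ccl2 stood at 76.4 and 427 CPM (log2 ratio 2.48), Ccl7 at 19.8 and 165 CPM (3.06), Cxcl1 at 13.8 and 78.2 CPM (2.50) and Ccl5 at 1.35 and 22.6 CPM (4.07). The Ccl5 value came from 8 UMIs against 101, and the Cxcl1 UMIs of p16-Alb-LRTD from 31 cells, of which 8 held 80.9%. Without the 5% of cells with the most UMIs of the 10 genes the Cxcl1 ratio was 1.26. Among inhibitors outside the list of 10, Tnip3, which binds the Tnfaip3 product, stood at 5.72 and 29.5 CPM (2.37) and Nfkbid, another nuclear IkB protein, at 13.3 and 27.7 CPM (1.06). Among the rest, the receptors Cd40 (22.0 and 45.6 CPM) and Tlr7 (88.5 and 138 CPM), the adaptor Traf2 (7.57 and 12.7 CPM) and the kinase Ikbke (45.2 and 68.4 CPM) were past 1.5-fold, and the kinase partner Tab1 was the 1 gene lower (8.41 and 5.59 CPM, with an interval that included 0).

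In stellate cells, of 64 genes with a mean of at least 5 CPM, 6 were at least 1.5-fold higher and 1 lower, where 3.03% and 3.05% of all features were, all of them targets, with a median of 0.08 over the 64. Cxcl10, a chemokine also switched on by interferon, stood at 68.1 and 192 CPM (1.49), Cxcl1 at 35.2 and 65.6 CPM (0.90) and Gadd45b, a stress response gene, at 15.5 and 28.8 CPM (0.89). Saa3, an acute phase gene, was the lower one, at 19.4 and 4.44 CPM (-2.13). No subunit, inhibitor, kinase, adaptor, receptor or ligand outside the 10 genes reached 1.5-fold there. Without the 5% of cells with the most UMIs of the 10 genes, 5 of 15 targets were higher and 2 lower. Of all features 2.97% were higher in that setting, and the median of the targets was 0.03 in place of 0.21.

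In endothelial cells 6 pathway genes were higher and 8 lower of 67, with a median of -0.02. These shares are near those of all features, 6.44% and 13.5%, and the genes are named as values only. Among targets Ccl4 stood at 2.44 and 15.3 CPM (2.65), while Saa3 (83.8 and 6.03 CPM, -3.80), Ccl2 (67.8 and 14.8 CPM, -2.19) and Tnfaip2 (30.9 and 8.03 CPM, -1.94) were lower. Of 516 Saa3 UMIs in p16-LRTD, 498 lay in 2 cells. With cells of 10 or more collagen UMIs per 10000 left out, 4 of 430 and 0 of 283 cells, the Saa3 ratio was -0.10, whereas Ccl2 remained at -2.05. The receptor Il1r1, through which interleukin 1 reaches NF-kappaB, stood at 154 and 255 CPM (0.73), and Tnfrsf12a (9.59 and 1.76 CPM, -2.45) and Cd40 (7.96 and 4.02 CPM, -0.99) were lower. The adaptor Myd88 was higher (14.3 and 25.4 CPM) and Traf3 (83.7 and 46.7 CPM) and Traf2 (-0.61) were lower. The ligand Il33 stood at 10.9 and 18.3 CPM, Nfkbid at 5.36 and 10.3 CPM and Nfkbie at 14.3 and 9.29 CPM. Markers of other cells also differed in the endothelial class. Of the infiltrating macrophage genes, Spp1 stood at 15.4 and 64.5 CPM, Gpnmb at 23.7 and 2.26 CPM and Ly6c2 at 0 and 7.28 CPM, with Ccr2 and Chil3 under 1 CPM in both libraries. The dendritic cell genes summed to 38.0 and 115 CPM and lymphocyte genes to 9.42 and 0 CPM, with all 6 of them at 0 in p16-Alb-LRTD. Hepatocyte genes summed to 80.9 and 86.9 CPM. The part of these cells in the endothelial differences was not tested.

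**Figure D3:**
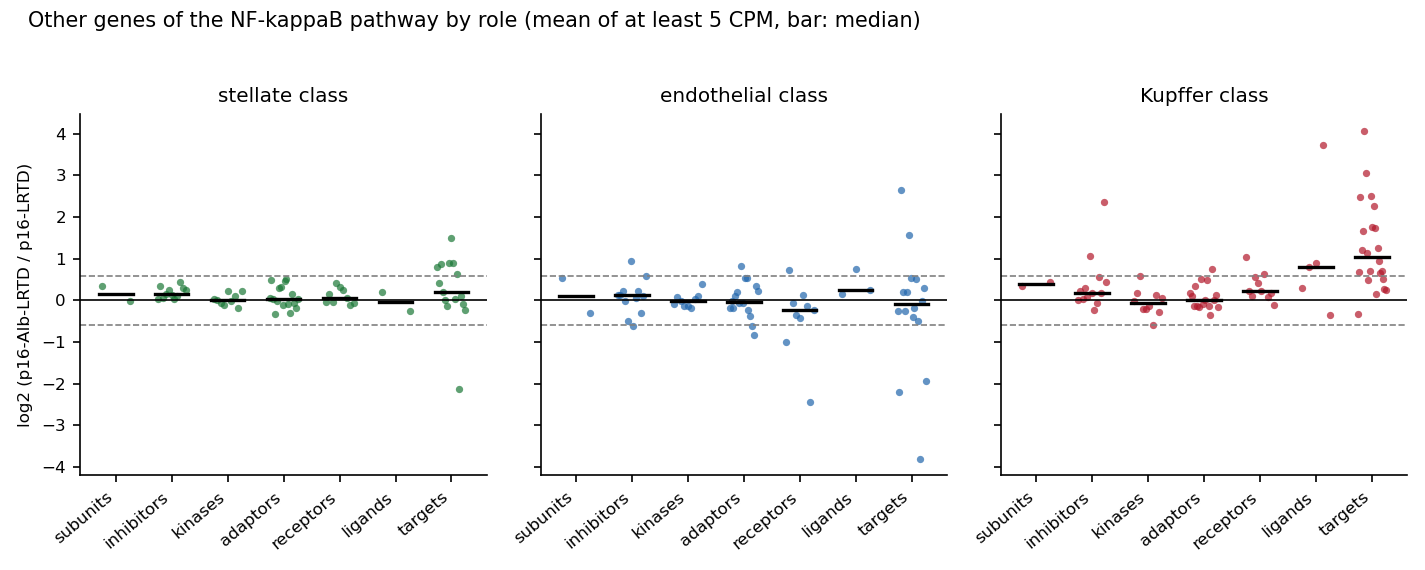
Log2 ratio of p16-Alb-LRTD over p16-LRTD (vertical axis) for the other pathway genes with a mean of at least 5 CPM, 1 point per gene, by role and class, with black bars for medians and dashed lines at 1.5-fold. The Kupffer targets and ligands lie highest, with medians of 1.05 and 0.81, and the medians of the kinases and adaptors lie near 0 in all 3 classes, with single genes past the dashed lines in endothelial and Kupffer cells.

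Other gene lists, which hold no gene of the 10, also differed between the libraries in all classes. Immediate early genes, which many stimuli induce within minutes, had medians of 0.64 in stellate, 0.88 in endothelial and 0.38 in Kupffer cells. Heat shock genes had medians of 0.85, 0.75 and 0.85, glucocorticoid targets 0.81, 0.76 and 0.89, and interferon genes 1.05, 1.08 and 1.59, in the same order of classes. In stellate cells Fos stood at 1347 and 2261 CPM, Hspa8 at 522 and 942 CPM, Cebpd at 479 and 1086 CPM and Isg15 at 167 and 365 CPM. The 3 fibrillar collagen genes moved the other way, summing to 8353 and 2852 CPM in stellate cells. Their sums were 634 and 41.7 CPM in endothelial cells and 147 and 38.9 CPM in Kupffer cells. How much of these endothelial and Kupffer sums was free RNA or came from mixed barcodes was not tested.

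The 10 genes were therefore also compared within tertiles of the cells by immediate early UMIs, formed over both libraries, since 1240 p16-LRTD but 3585 p16-Alb-LRTD stellate cells fell in the highest tertile. In stellate cells 2, 3 and 2 genes were past 1.5-fold from the lowest to the highest tertile, in place of 4, where 3.24%, 2.95% and 2.79% of all features were. Nfkbiz had ratios of 0.22, 0.40 and 0.36 from the lowest to the highest tertile, in place of 0.66 over all cells, and no longer reached 1.5-fold. Nfkbia had 0.22, 0.38 and 0.39 in place of 0.47. Birc3 kept 0.73, 0.83 and 0.76, beside 0.84 over all cells, Tnfaip3 kept 0.96, 1.06 and 1.27, whereas Icam1 had 0.57, 0.99 and 0.55 and so reached 1.5-fold only in the middle tertile. The part of heat shock, glucocorticoid and interferon genes in these differences was not tested.

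In Kupffer cells 7 of the 10 genes were past 1.5-fold in the lowest immediate early tertile and 5 in each of the others, where 11.8%, 7.38% and 8.68% of all features were, from the lowest to the highest. The Nfkbiz ratio was 0.96 in the lowest tertile and 0.20 and 0.25 in the others. In the highest tertile Birc3 had a ratio of 0.26, Bcl3 0.23, Nfkb1 0.22 and Relb 0.41, and in the middle one Nfkbia had 0.43 and Tnfaip3 0.51. Icam1 had 0.70, 1.04 and 1.08 and Vcam1 0.58, 0.83 and 0.93 from the lowest to the highest. Endothelial ratios differed between tertiles. In the highest tertile, which held 58 p16-LRTD and 180 p16-Alb-LRTD cells, 7 of the 10 genes were at least 1.5-fold lower and 1 higher, where 23.9% and 14.3% of all features were. There Nfkbia stood at 920 and 504 CPM (-0.87), Tnfaip3 at 226 and 88.2 CPM (-1.36, -1.64 to -1.07), Relb at 185 and 60.8 CPM (-1.61, -1.94 to -1.27) and Icam1 at 672 and 192 CPM (-1.81, -1.98 to -1.63). In the middle tertile 4 genes were lower and 1 higher, against 18.3% and 9.2% of all features, and the ratio was -0.21 for Nfkbia and -1.21 for Icam1. In the lowest tertile 1 gene was lower and 2 higher, against 19.2% and 14.1%. Nfkbia was there 160 and 216 CPM (0.43, 0.11 to 0.74) and Icam1 65.7 and 72.0 CPM (0.13, -0.43 to 0.65), and the ratio was 0.54 for Bcl3 (-0.36 to 1.35) and -0.01 for Relb (-0.74 to 0.65). Among the p16-LRTD endothelial cells the highest tertile was thus the one with high Nfkbia, Tnfaip3, Relb and Icam1, and these 58 cells held 544 of the class's 1218 Icam1 UMIs. Nfkbiz, past 1.5-fold over all endothelial cells, was lower in p16-Alb-LRTD in the lowest tertile, at 129 and 60.0 CPM (-1.11, -1.70 to -0.57), and had ratios of 0.39 and 0.67 in the others. Vcam1 was higher in p16-Alb-LRTD in all 3 tertiles, with ratios of 0.85, 0.81 and 0.54.

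**Figure D4:**
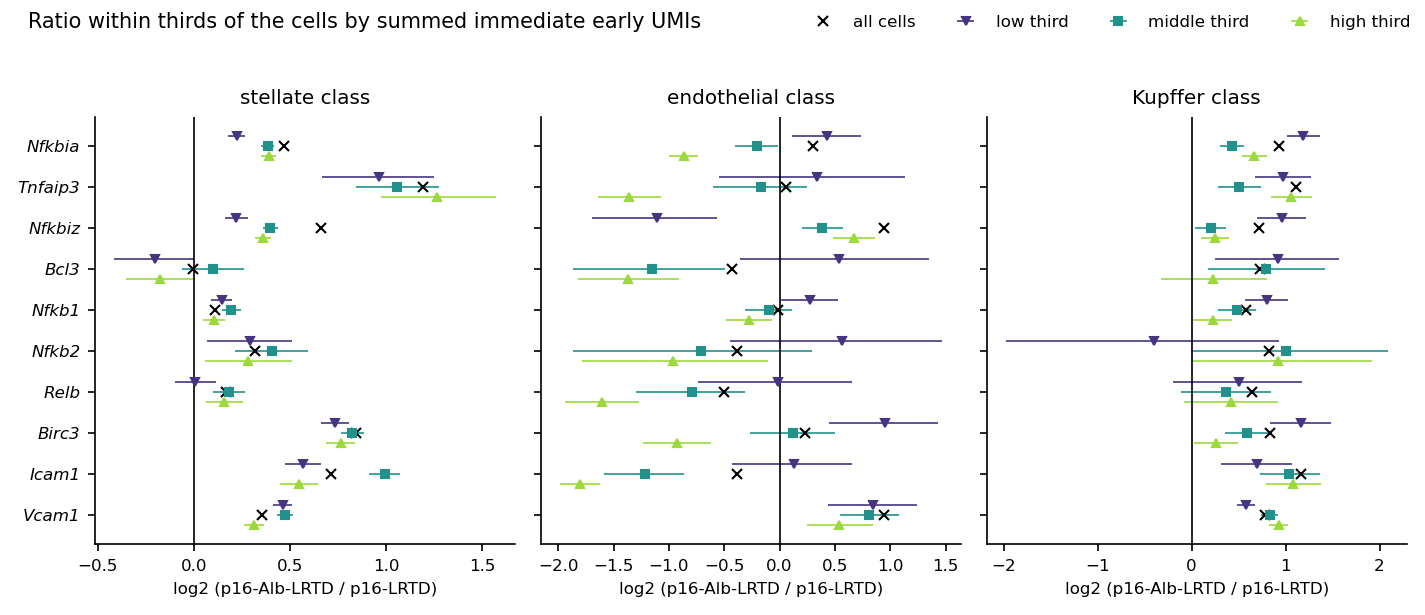
Log2 ratio of p16-Alb-LRTD over p16-LRTD (horizontal axis, own scale in each panel) for each gene over all cells (crosses) and within the lowest (low), middle and highest (high) tertile of cells by immediate early UMIs, with 95% counting intervals. In stellate cells Nfkbiz within tertiles lies below its value over all cells, and in endothelial cells the highest tertile of Icam1, Relb, Bcl3 and Tnfaip3 lies below 0.

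Stellate ratios also varied with collagen level and depth. In the tertile with the most collagen UMIs, Icam1 stood at 32.7 and 67.7 CPM (1.05) and in that with the fewest at 56.1 and 70.4 CPM (0.33), so the p16-Alb-LRTD levels were close and the p16-LRTD levels were not. Vcam1 went the other way, with a ratio of 0.10 at the most collagen and 0.74 at the least. Under 15000 UMIs 1 of the 10 genes was at least 1.5-fold higher and 1 lower, where 4.33% and 4.2% of all features were. From 15000 to 25000 UMIs 4 were higher and over 25000 UMIs 6, against 2.93% and 4.09% of all features. Bcl3, level over all stellate cells, had a ratio of -0.64 in cells under 15000 UMIs and 0.65 in cells over 25000. Nfkbia had 0.20 and 0.63 in these ranges and Birc3 0.53 and 1.21. The part of depth in these differences was not tested.

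Across single stellate cells the genes were only loosely tied. Of 6341 features with at least 20 CPM in both libraries, those whose values over cells were most like Nfkbia were Ccl2, Cxcl1, Junb, Tnip1 and Birc3, by the lower of the Pearson correlations in 7852 p16-LRTD and 6621 p16-Alb-LRTD cells. That lower correlation was 0.27 for Ccl2, 0.22 for Cxcl1 and Junb and 0.20 for Tnip1 and Birc3. Relb was 12th in this order, Icam1 21st, Nfkbiz 53rd, Nfkb1 258th and Vcam1 574th. Tnfaip3, Bcl3 and Nfkb2 were under 20 CPM and not ranked. Their correlations with Nfkbia in p16-LRTD and p16-Alb-LRTD were 0.17 and 0.21, 0.16 and 0.13, and 0.04 and 0.08. In p16-LRTD endothelial cells the correlation of Nfkbia was 0.60 with Icam1, 0.58 with Tnfaip3, 0.53 with Relb and 0.53 with Bcl3, and in p16-Alb-LRTD endothelial cells 0.35, 0.33, 0.27 and 0.23. With the other 5 genes it was between 0.11 and 0.37 in p16-LRTD and between 0.01 and 0.17 in p16-Alb-LRTD. In Kupffer cells it was 0.36 and 0.52 with Tnfaip3 and 0.43 and 0.46 with Nfkbiz, and with the other 7 genes it ran from -0.01 for Vcam1 to 0.35 for Birc3 in p16-LRTD and from 0.13 for Vcam1 to 0.36 for Icam1 in p16-Alb-LRTD. These cells share a library, depth and sparse counts, and the correlations are given as a description without a test.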

How the data were processed

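Raw UMI counts per gene and barcode were deposited by the authors, made with Cell Ranger 7.0.1 against mm10 from 10x 3′ v3.1 libraries. The deposited count tables of both libraries of stellate cell isolates were used, 193746596 and 162219167 UMIs in all. Other samples of the series were not used here. Filters on genes, UMIs and mitochondrial share follow the study's methods, without its integration or clustering. UMIs were summed per class and library in Python 3.11.15 with SciPy 1.17.1 and divided by the class total to give CPM. Ratios carry exact conditional binomial intervals, shares Clopper-Pearson intervals, and a gene was called past 1.5-fold only at a mean of at least 5 CPM. The ratio script was tested on simulated data that held counting error only. A cell counts in a class only if it reaches that threshold and no other. edgeR 4.0.16 and DESeq2 1.42.0 served only for alternative scaling factors, and no count model was fitted. The 10 genes, the other lists and the strata were chosen with earlier results of these data known. Named by rule were all 10 genes, at most 4 pathway genes per role and class past 1.5-fold by size of the ratio, the 5 genes most like Nfkbia, and at most 3 genes of highest mean CPM from each other list. Genes given for single points outside that rule (cell markers and collagens) were chosen for the check they serve. Promoter sequence and coordinates are from RefSeq GRCm38.p6 and GENCODE GRCm38, the same primary assembly as mm10. Intervals cover counting error only. One gene of the infiltrating macrophage list is not reported here, and neither is the sum of that list.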

Additional observations from a re-analysis of the deposited data

Results flagged for a closer look

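Icam1, Relb and Bcl3 had ratios on opposite sides of 0 in different classes, each beyond its counting interval. The endothelial log2 ratio of Icam1 was -0.39, against 0.71 in stellate and 1.17 in Kupffer cells. That of Relb was -0.50, against 0.17 and 0.64, and that of Bcl3 was -0.43, against 0.73 in Kupffer cells. The difference between classes was not tested, since each class is 1 library per genotype. Over 15 other choices of filter, scaling and cells, the endothelial ratio stayed below 0 for all 3 genes, from -0.61 to -0.21 for Icam1, from -0.57 to -0.40 for Relb and from -0.62 to -0.25 for Bcl3. Within tertiles by immediate early UMIs, from the lowest to the highest, the ratio was 0.13, -1.21 and -1.81 for Icam1, 0.54, -1.15 and -1.37 for Bcl3 and -0.01, -0.79 and -1.61 for Relb. The lowest tertile was thus above 0 for Icam1 and Bcl3, and there the interval of each of the 3 genes included 0.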

How the results depend on the processing

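Outside the strata, no alternative turned the sign of the stellate or Kupffer median or of a ratio of the 10 genes whose interval excluded 0. Such ratios did turn within strata: 2, 1 and 3 of the 10 genes in the highest, middle and lowest immediate early tertile of endothelial cells, with Nfkbia at -0.87 in the highest and Nfkbiz at -1.11 in the lowest, 1 in the lowest tertile of Kupffer cells and 2 in Kupffer cells under 10000 UMIs. Among other pathway genes, without the cells with the most UMIs of the 10 genes stellate Ccl2 went from 0.41 to -0.05, and with Clec4f-positive cells Kupffer Saa3 went from 0.71 to -2.77. The endothelial median, 0.02, was -0.05 with barcodes counted in every class they reach, -0.03 by the mean of per-cell CPM and -2.33e-05 with class thresholds 1.5 times as high. Of 440 single ratios, 382 stayed within their counting interval and 58 left it. With edgeR's TMM or DESeq2's median-of-ratios factors the stellate median was 0.46 in place of 0.41. All 10 Kupffer genes then passed 1.5-fold, since Nfkb1 stood just under it, where 5.94% and 6.11% of all features did. Without the 5% of cells with the most UMIs of the 10 genes, an alternative chosen after seeing the data, the stellate median was 0.38. In that setting 3 stellate genes passed, Icam1 no longer, where 2.97% of all features did. At 2-fold, 1 stellate, 0 endothelial and 2 Kupffer genes passed, against 0.923%, 2% and 1.7% of all features. Tnfaip3 fell under 2-fold in stellate cells with barcodes counted in every class they reach (0.87). It also did so in Kupffer cells of 10000 to 30000 UMIs (0.85). In the endothelial class 1 gene was 1.5-fold lower with barcodes counted in every class they reach (Icam1). Without the cells with the most UMIs of the 10 genes it was 1 as well (Bcl3). The share of all features lower was not computed for these choices. Leaving out the cells with the most UMIs of the 10 genes left 8 Kupffer genes higher, against 5% of all features. In Kupffer cells of 10000 to 30000 UMIs 4 genes passed and the median was 0.50. The cause was not tested. With barcodes counted in every class they reach, the endothelial Tnfaip3 ratio was -0.40 in place of 0.06. Shares of cells with a UMI moved with thinning in 113 of 120 cases. The limits to Clec4f-positive and to collagen-poor cells, the Kupffer ranges under 10000 and over 30000 UMIs and the tertiles outside stellate cells were also chosen after seeing the data. No paired analysis was possible because the groups compared share only replicate number 1, each being a single library. Leaving out a replicate was not possible for the same reason.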
